A study of Mus musculus with 17 samples.

Results

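The protocadherins, adhesion receptors of the cadherin superfamily, were examined for histone H3.3 in the newborn mouse lens. Their genes were taken from the GENCODE annotation of the mouse assembly GRCm38 (mm10) as the protein-coding genes on the autosomes whose symbols start with Pcdh, which gave 67 of 20807 genes. Of these, 57 lie in 3 tandem clusters, Pcdha with 14 genes, Pcdhb with 22 and Pcdhg with 21, and 10 are single genes elsewhere. Lens epithelium and lens fibers of CD1 mice had been separated by microdissection, with no treatment or engineered allele named for either group, and their chromatin had been precipitated with an antibody against H3.3. Each compartment had 2 biological replicates, and each sample pooled the lenses of many animals. The sample titles give the age as P1, whereas the protocol and the methods give P0.5. Islands, which are stretches where ChIP reads exceed the background, had been called by the authors in each of the 4 libraries. Paired values of a compartment are given with replicate 1 first. A gene was counted as having an island when an island overlapped its annotated body by at least 1 bp. Sequencing depth is not known, so that a gene without an island is one without a called island, and neither an interval nor a detection limit could be given. An island in such bulk tissue can stand for much H3.3 in few cells or for less in many, and these cannot be told apart.

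H3.3 is a variant of histone H3 that can enter chromatin without DNA replication, mainly at active promoters, gene bodies and enhancers. The clustered protocadherins are best known from neurons, where each cell expresses its own selection of isoforms as an identity code at the cell surface. Every Pcdha and Pcdhg gene has its own large first exon with its own promoter, which is spliced to constant exons shared by the whole cluster, whereas most Pcdhb genes consist of a single exon. Promoter choice depends on CTCF and cohesin, which bring a promoter close to an enhancer, and unused promoters carry DNA methylation and repressive histone marks. The single protocadherins are not organised in this way and each has its own promoter, as other genes do.

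The promoter sequences of 4 single genes are shown as examples of the contrast met below at gene starts: Pcdh8 and Pcdh9 had an H3.3 island at the start in both fiber libraries, and Pcdh17 and Pcdh18 had none in any library. Each sequence is the 150 bases upstream of the most 5′ annotated start, 5′ to 3′ on the gene's strand, from the RefSeq copy of GRCm38.p6, with CpG dinucleotides in capitals.
Pcdh8: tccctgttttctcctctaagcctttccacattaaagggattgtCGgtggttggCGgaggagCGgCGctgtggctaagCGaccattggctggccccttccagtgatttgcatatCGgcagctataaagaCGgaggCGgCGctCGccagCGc
Pcdh9: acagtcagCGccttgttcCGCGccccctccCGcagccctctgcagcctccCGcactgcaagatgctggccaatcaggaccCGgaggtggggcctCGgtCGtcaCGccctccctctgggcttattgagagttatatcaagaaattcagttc
Pcdh17: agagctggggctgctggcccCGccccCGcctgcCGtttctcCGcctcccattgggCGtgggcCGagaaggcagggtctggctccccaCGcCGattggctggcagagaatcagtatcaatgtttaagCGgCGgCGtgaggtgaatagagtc
Pcdh18: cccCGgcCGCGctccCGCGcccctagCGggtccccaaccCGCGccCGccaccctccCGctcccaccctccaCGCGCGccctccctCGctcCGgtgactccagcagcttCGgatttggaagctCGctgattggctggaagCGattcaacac
The Pcdh8 sequence is chr14:79771313-79771462, minus strand, and holds 11 CpG at a GC content of 58%. The Pcdh9 sequence is chr14:93890680-93890829, minus strand, with 9 CpG and 61.3% GC. The Pcdh17 sequence is chr14:84443413-84443562, plus strand, with 11 CpG and 64.7% GC. The Pcdh18 sequence is chr3:49757326-49757475, minus strand, with 18 CpG and 72% GC. All 4 overlap no annotated exon. By the count of CpG alone, the pair with an island at the start did not stand above the pair without. This holds for the 4 genes shown. In the same stretch Pcdh15 and Pcdh20, also without an island, held 18 and 1 CpG. Pcdh7, with an island at the start in both fiber libraries, held 5.

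The lists of the 4 libraries differed in size, with 10389 and 14434 islands for epithelium against 27059 and 35940 for fibers. Islands covered 1.66% and 1.79% of the genome in epithelium and 6.52% and 6.89% in fibers. Among markers of lens fibers, such as Bfsp1 and Mip, 6 and 7 of 9 genes had an island in epithelium and all 9 had one in both fiber libraries. Of 6 epithelial markers, 3, 5, 5 and 6 had an island in the same order of libraries. Islands lay on 3 or 4 of 6 retinal and neuronal markers in every library, with none on Rcvrn and Crx, on 1 or 2 of 4 vessel markers, with none on Kdr and Tek, and on none of 3 pigment cell markers. Of 3 blood and immune markers, Cd68 alone had an island, in all 4 libraries. As the 4 libraries can be split in 6 ways only, no exact permutation test between compartments (two-sided) can give a p under 0.33.

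More protocadherin genes had an island on their body in fibers than in epithelium. Islands were called on 1 of 67 bodies in epithelium replicate 1, where 27.2% of all 20807 genes had one. In epithelium replicate 2 they lay on 22 bodies (32.8%), against 32% of all genes. In fiber replicates 1 and 2 they lay on 39 (58.2%) and 41 (61.2%) bodies, against 53.5% and 59.5% of all genes. The mean was 11.5 ± 14.8 bodies in epithelium and 40 ± 1.41 in fibers (SD, n = 2 each), a difference of 28.5 bodies (p = 0.33 by the two-sided exact permutation test). Both fiber counts lay above both epithelium counts, but the epithelium libraries were far apart, and without epithelium replicate 1 the difference was 18. The number of islands per library moved with the compartment, and when every list was limited to 10389 islands the difference was 17.5 with islands ranked by density and 9 with islands ranked by read count. In fibers and in epithelium replicate 2, the share of protocadherin bodies with an island was thus close to that of all genes. By gene length the shares were not alike. Under 5 kb, 1 of 18 protocadherin genes had an island in each fiber library, against 37.5% and 40.3% of all such genes. From 100 to 300 kb, 25 of 25 had one in each, against 69.1% and 79.4%.

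These counts rest on few islands, because the bodies of Pcdha and of Pcdhg genes end at the same last exon and overlap each other. A single island gave all 14 Pcdha genes their count in each fiber library, and 1 island in epithelium replicate 2 gave 20 Pcdhg genes theirs. Counted once each, the islands on protocadherin genes numbered 1 and 4 in epithelium and 12 and 16 in fibers. They added up to 4.2 and 13.2 kb in epithelium and to 59.6 and 61.2 kb in fibers. By family, the bodies with an island in fibers were 14 and 14 of 14 for Pcdha, 0 and 0 of 22 for Pcdhb, 20 and 21 of 21 for Pcdhg, and 5 and 6 of 10 for the single genes. In epithelium, the counts were 0 and 0 for Pcdha, 0 and 0 for Pcdhb, 0 and 20 for Pcdhg, and 1 and 2 for the single genes.

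At gene starts, where overlapping bodies are told apart, H3.3 islands were much less frequent on protocadherin genes than on protein-coding genes as a whole. Within 1 kb of the most 5′ annotated start, 0 of 67 genes had an island in epithelium replicate 1 and 3 (4.48%) in epithelium replicate 2, where the shares of all genes were 15.7% and 19.4%. In fiber replicates 1 and 2, 8 (11.9%) and 9 (13.4%) starts had an island, against 41% and 47.4% of all genes. The mean was 1.5 ± 2.12 starts in epithelium and 8.5 ± 0.707 in fibers (SD, n = 2 each), a difference of 7 (exact permutation test, two-sided, p = 0.33). With every list limited to 10389 islands it was 3 by density and 1 by read count, and with only islands of at least the median density it was 4.5. No start of a Pcdha or a Pcdhb gene had an island in any library. Pcdhg had 0, 1, 3 and 3 of 21 starts with an island in epithelium and fiber replicates 1 and 2, and the single genes had 0, 2, 5 and 6 of 10. The low share over all members thus came from the clusters, while the share of the 10 single genes in fibers was 50% and 60%.

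**Figure D1:**
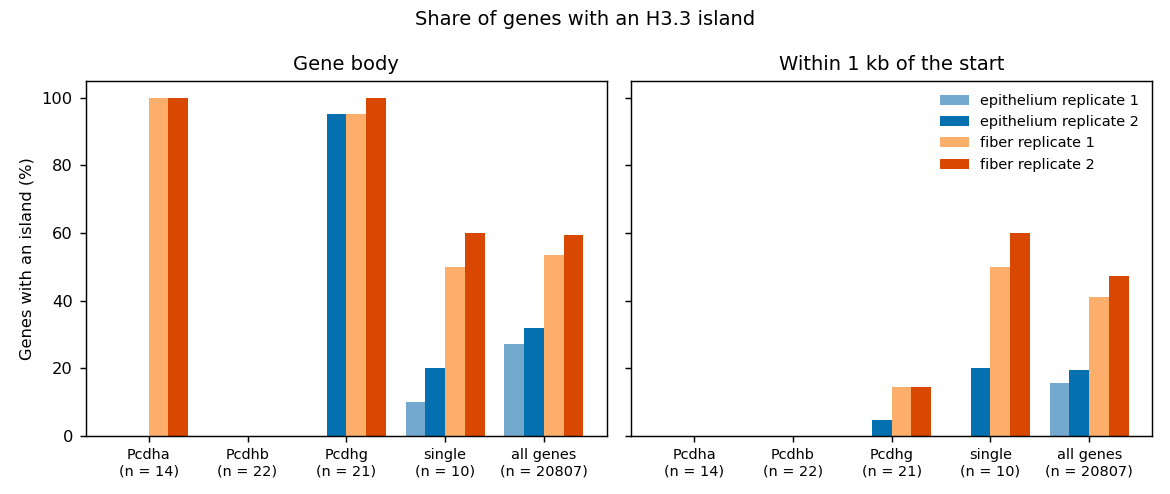
Percent of genes with an H3.3 island on the body (left) and within 1 kb of the start (right), for the 3 protocadherin clusters, the 10 single protocadherin genes and all 20807 protein-coding genes; each bar is 1 library. Bodies of Pcdha and Pcdhg reach 95.2% to 100% in fibers, while their starts reach 0% and 14.3% and those of Pcdhb stay at 0% in all 4 libraries.

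Read over both replicates, 17 of 67 bodies (25.4%) had an island in both fiber libraries and in neither epithelium library, against 16.8% of all genes. These were the 14 Pcdha genes, which share 1 island, and Pcdh8, Pcdh9 and Pcdh12. For starts the count was 5 (7.46%), against 16.5% of all genes, and the 5 were Pcdhga12, Pcdhgc3, Pcdh8, Pcdh9 and Pcdh12. The covered percent of the body was higher in each fiber library than in each epithelium library for 39 of 67 genes (58.2%), against 40.4% of all genes. They were 14 Pcdha, 0 Pcdhb, 20 Pcdhg and 5 single genes. Both shares of bodies are carried by nested genes, and they count few independent loci.

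The 3 clusters lie one after the other on the plus strand of chromosome 18, from 36930184 to 37841873, a span of 912 kb. Pcdha takes up 257 kb (chr18:36930184-37187661), Pcdhb 260 kb (chr18:37264938-37524479) and Pcdhg 180 kb (chr18:37661793-37841873). Islands covered 0% and 0.263% of the span in epithelium and 1.97% and 2.17% in fibers. The whole chromosome was covered to 0.661%, 0.906%, 5.00% and 5.46% in the same order. Pooled to 1 value per library, the 500 kb on either side of the span were covered to 0.7%, 2.76%, 13.4% and 13.3%. Coverage of the clusters was thus below that of their chromosome and below that of their flanks in each of the 4 libraries. The flank after the span contains Pcdh1 and Pcdh12. Both flanks also hold other protein-coding genes, such as Hars before the span and Hdac3 after it. Neither stretch between neighbouring clusters, 77.3 kb from Pcdha to Pcdhb and 137 kb from Pcdhb to Pcdhg, held an island in any library. The second one contains Taf7, which encodes a subunit of the general transcription factor TFIID, and Slc25a2, a mitochondrial carrier gene.

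**Figure D2:**
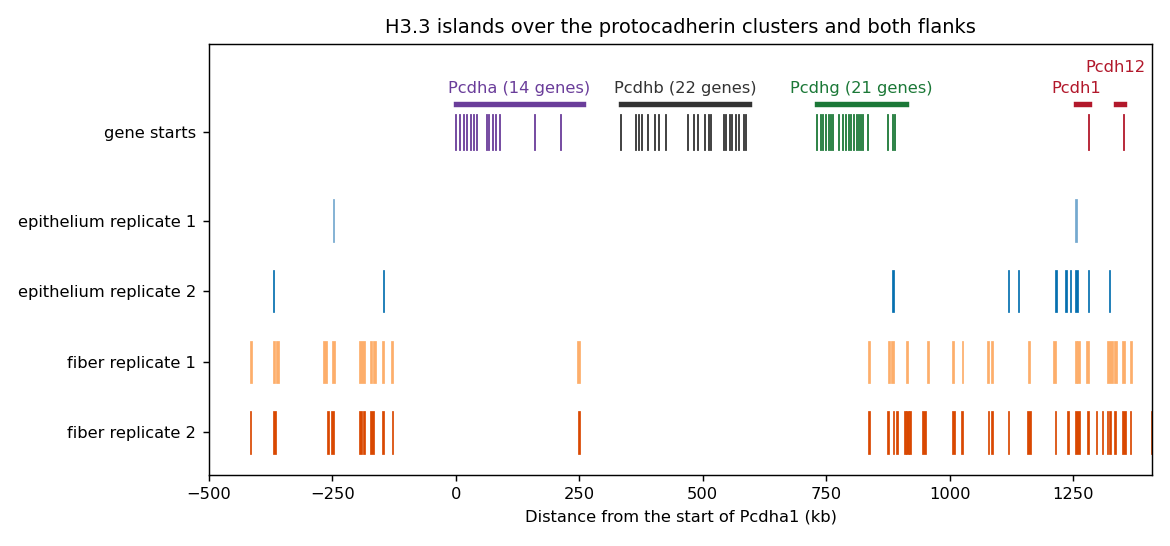
Map of the 3 protocadherin clusters with 500 kb on either side, drawn to scale by distance in kb from the start of Pcdha1. Ticks in the top row are gene starts, horizontal bars span each cluster and the single genes Pcdh1 and Pcdh12, and each lower row shows the islands of 1 library; fiber islands lie densely on both flanks, with 1 in Pcdha, none in Pcdhb and a group at the end of Pcdhg.

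Pcdhb, alone among the clusters, had no island in any library, and 0% of its 260 kb was covered in both epithelium and both fiber libraries (exact permutation test, two-sided, p = 1). Its genes, from Pcdhb1 at the start to Pcdhb22 at the end, encode mostly single-exon isoforms that lack the shared cytoplasmic domain. The island-free stretch around the cluster measured 1499 kb and 1029 kb in epithelium and 584.6 kb and 584.8 kb in fibers. These stretches were long for each library, where 96.9%, 96.8%, 97.4% and 98.1% of the gaps between neighbouring islands were shorter, but they were not singular, as 709 and 672 gaps of the fiber libraries were at least as long. In both fiber libraries the nearest island before the cluster ended 83.7 kb away, inside Pcdha. The nearest one after it lay 241 and 242 kb away, in Pcdhg at Pcdhga12.

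Pcdha held 1 island, in fibers only, and it was not at a promoter. In fiber replicate 1 the island was 6400 bp long (chr18:37174801-37181200) with 171 reads, 26.7 reads per kb. In fiber replicate 2 it was 4400 bp long (chr18:37176801-37181200) with 146 reads, 33.2 reads per kb. The epithelium libraries had no island in the cluster, so that the covered share of the locus was 0% and 0% in epithelium against 2.49% and 1.71% in fibers, a difference of 2.10 percentage points between means (exact permutation test, two-sided, p = 0.33). With every list limited to 10389 islands, fiber replicate 1 lost the island by density and fiber replicate 2 by read count, and the difference was 0.854 and 1.24 points. The island lies in the intron between constant exon 2 (chr18:37159265-37159353) and constant exon 3 (chr18:37184946-37187657), an intron of all 14 genes, and touched no Pcdha exon in either library. It contained the start of Gm10544, a processed transcript on the minus strand. Enhancers of Pcdha are known near the end of the cluster, in and beyond this intron. Their positions are not part of the annotation used here, and an overlap was not tested.

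The nearest protocadherin start to this island was that of Pcdhac2, 31298 and 33298 bp away in fibers. Pcdhac1 and Pcdhac2 are the C-type isoforms of the cluster, which neurons express constitutively rather than by chance. Neither had an island at its start or on its first exon in any library, and neither did Pcdha1, the first gene of the cluster. Since all bodies share the island, the percent covered only followed gene length. It was 2.49% and 1.71% in fibers for Pcdha1, 6.55% and 4.51% for Pcdhac1, and 14.49% and 9.96% for Pcdhac2.

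Pcdhg had islands at 3 of its 21 starts in both fiber libraries, and 1 of these also in epithelium replicate 2. The locus was covered to 0% and 1.33% in epithelium and to 6.44% and 8.55% in fibers, by 0, 1, 3 and 5 islands. The means were 0.666 ± 0.942% and 7.497 ± 1.492% (SD, n = 2 each), a difference of 6.83 percentage points (exact permutation test, two-sided, p = 0.33). With every list limited to 10389 islands it was 1.78 points by density, and by read count no library had an island in Pcdhg and it was 0. All islands lay between Pcdhga12 and the end of the cluster. Pcdhga1, the first gene, had none at its start or first exon.

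Pcdhga12 is the last of the A-type and B-type genes before the C-type genes. Its first exon was covered to 0% in both epithelium libraries and to 87.8% and 85.8% in fibers. The islands were chr18:37765801-37768400 with 81 reads, 31.2 per kb, and chr18:37766001-37768800 with 88 reads, 31.4 per kb, and both contained the start of the transcript Gm26672 on the other strand. The fiber libraries were close to each other here, and no epithelium library had an island.

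Pcdhgc3, Pcdhgc4 and Pcdhgc5 are the C-type isoforms of Pcdhg, of which Pcdhgc4 is needed for the survival of neurons. The first exon of Pcdhgc3 was covered to 0% in both epithelium libraries and to 72.1% and 36.6% in fibers, by islands of 115 and 92 reads at 33.8 and 27.1 reads per kb. They also overlapped BC037039, a transcript annotated on the other strand, and as the islands carry no strand the transcripts cannot be told apart. The first exon of Pcdhgc4 was covered to 0% and 66.2% in epithelium and to 86.8% and 75.7% in fibers. Its islands held 64 reads in epithelium replicate 2 (chr18:37814601-37817000) and 125 and 65 reads in fibers, and the one in fiber replicate 1 had a density of 22.3 reads per kb, higher than only 6.90% of that library's islands. Thus Pcdhgc4 was the only clustered gene with an island at the start in an epithelium library.

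Fiber replicate 2 alone had a pair of further islands at the end of Pcdhg. The island chr18:37821201-37825200 with 111 reads covered 35.6% of the first exon of Pcdhgc5 and all of constant exon 1, and began 1688 bp after the Pcdhgc5 start. The island chr18:37838801-37841800 with 76 reads covered 96.3% of constant exon 3, which encodes part of the cytoplasmic domain shared by all Pcdhg proteins. Fiber replicate 1 had neither, so that Pcdhgc5 was covered to 0%, 0%, 0% and 31.3% in the 4 libraries and the replicates did not bear out a difference. Also, 3 readthrough genes annotated as protein-coding, Gm42416, Gm37013 and Gm37388, extend from Pcdha into Pcdhg and share islands with it, although the last island lies beyond the ends of Gm37013 and Gm37388. Pcdhgb8, annotated as a polymorphic pseudogene, shares all of them.

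Among the single genes, Pcdh1, Pcdh7 and Pcdh9 form the delta1 subgroup, and all 3 had an island at the start in both fiber libraries. Pcdh1, an adhesion protein of epithelia, lies on the minus strand beyond the clusters (chr18:38185914-38212053). It was the only protocadherin gene with an island in all 4 libraries, and its body was covered to 6.45% and 25.8% in epithelium and to 46.4% and 39.6% in fibers. Islands at its 3′ end were called in every library, whereas an island at its start was called in epithelium replicate 2 and both fiber libraries. The start of 2010320O07Rik, a long noncoding RNA on the other strand, lies inside the Pcdh1 body, in the start island of both fiber libraries. Reads in its islands numbered 119 and 239 in epithelium and 428 and 388 in fibers, and the compartments did not overlap.

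Pcdh7 (chr5:57717967-58133230, plus strand), a delta1 protocadherin with known roles in axon guidance, was covered to 0%, 0.530%, 1.12% and 2.32% of its 415 kb. Over its first exon, of 4312 bp, the covered share was 0% and 51.0% in epithelium and 100% and 81.4% in fibers. Reads in its islands numbered 0 and 64 in epithelium and 216 and 376 in fibers. An antisense transcript, 4932441J04Rik, starts within the first exon. Fiber replicate 2 had 2 more islands inside introns, 135234 and 324434 bp from the start. Pcdh9 (chr14:93013410-93890679, minus strand), a delta1 gene expressed in the brain, had 1 island in each fiber library and none in epithelium. That island covered the whole 238 bp of the first exon with 76 and 69 reads, at 29.2 and 34.5 reads per kb. Because the gene is 877 kb long, this amounted to 0.0774% and 0.123% of its body.

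The delta2 subgroup was split. Pcdh8 (chr14:79766775-79771312, minus strand), a delta2 protocadherin that acts in the embryo and at synapses, had no island in epithelium, and 55.4% and 20.1% of its body was covered in fibers, with 158 and 105 reads. The start of Gm9748, an antisense gene, lies in the island of fiber replicate 1. The fiber replicates were far apart, but both lay above both epithelium libraries. Pcdh10 (chr3:45378398-45435623, plus strand), which recruits the actin-regulating WAVE complex, had an island of 67 reads at its start in fiber replicate 2 only, covering 1.05% of the body. It contained the start of 2610316D01Rik on the other strand. Pcdh17 (chr14:84443563-84539002) and Pcdh18 (chr3:49743296-49757325), the other delta2 genes, had no island in any library.

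Pcdh12, Pcdh15 and Pcdh20 stand outside both subgroups. Pcdh12 (chr18:38267089-38284402, minus strand), known from endothelial cells, was covered to 0% and 0% in epithelium and to 43.4% and 30.05% in fibers, with 299 and 201 reads. Its start island was at low density, 22.0 and 23.9 reads per kb, and also held the start of Rnf14, a ubiquitin ligase gene on the other strand (chr18:38284537-38317849). Which of the neighbours the island belongs to cannot be told apart. A further island of fiber replicate 1 at its 3′ end reached into Dele1. Of the 4 vessel markers, Pecam1 had an island in all 4 libraries, Cdh5 in epithelium replicate 2 and both fiber libraries, and Kdr and Tek in none, and their part in the Pcdh12 result was not tested. Pcdh15 (chr10:73099342-74649737), a component of the tip links of sensory hair cells, and Pcdh20 (chr14:88464743-88471396), a neuronal gene, had no island in any library.

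Averaged over the 10 single genes, 0.645% and 2.63% of the body was covered in epithelium and 14.6% and 9.32% in fibers. The difference between means was 10.3 percentage points (exact permutation test, two-sided, p = 0.33). With every list limited to 10389 islands it was 3.64 points by density and 5.92 by read count. Pcdh1, Pcdh8 and Pcdh12 carried the fiber values, and for the other 7 genes no library exceeded 2.32%.

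**Figure D3:**
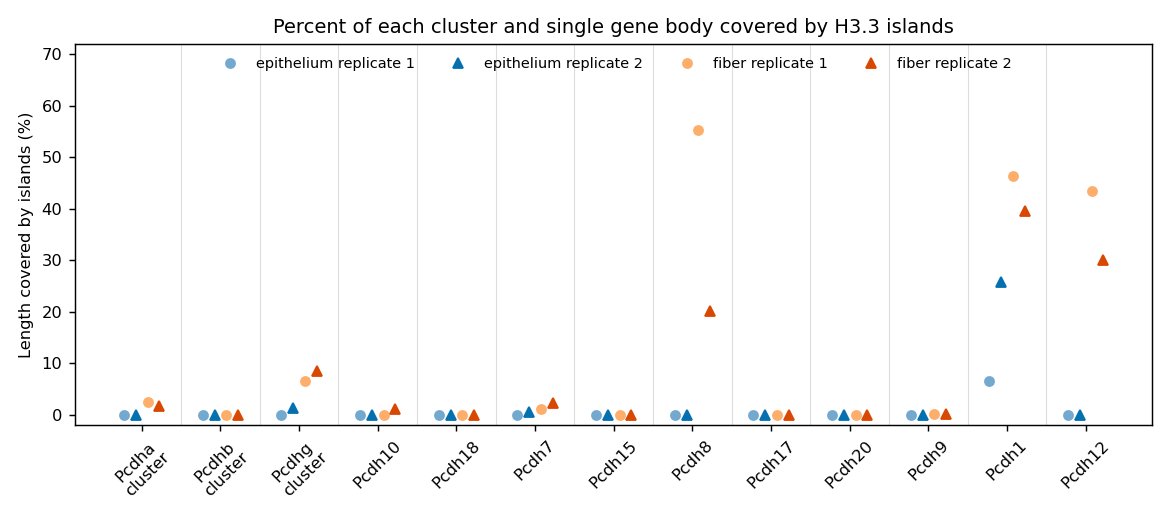
Percent of the length covered by H3.3 islands for the 3 clusters, each taken as 1 locus, and the body of each single protocadherin gene, with 1 point per library. Pcdh8, Pcdh1 and Pcdh12 reach 20.1% to 55.4% in fibers, Pcdhg reaches 8.55%, and Pcdhb, Pcdh15, Pcdh17, Pcdh18 and Pcdh20 are at 0% in all 4 libraries.

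The islands on protocadherin genes recurred between fiber replicates: all 12 islands of fiber replicate 1 overlapped an island of fiber replicate 2, and 11 of the 16 of fiber replicate 2 overlapped one of replicate 1. Over all islands of these libraries, 84.9% and 67.9% had such a partner. The 5 without a partner were those at Pcdh10, at the end of Pcdhg and in the Pcdh7 introns. All 4 islands of epithelium replicate 2 overlapped an island in each fiber library, but 1 of 4 overlapped an island of epithelium replicate 1. Of all islands of epithelium replicate 2, 73.7% and 76.1% overlapped an island of fiber replicates 1 and 2, and 42.3% one of epithelium replicate 1. The single island of epithelium replicate 1 overlapped one in each other library. At a start lay 0 of 1 and 3 of 4 of these islands in epithelium and 8 of 12 and 9 of 16 in fibers.

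In density, that is reads per kb of island, the islands on protocadherin genes were much like other islands. Their median was 28.3 and 28.1 reads per kb for epithelium and 29.2 for both fiber libraries, beside 28.3, 28.1, 27.4 and 27.5 for all islands of the same libraries. The difference between compartments was 1.01 reads per kb (exact permutation test, two-sided, p = 0.33), and with every list limited to 10389 islands it was 3.29 by density and -0.0915 by read count. Ranking by density keeps the densest islands of the longer fiber lists, so that the 3.29 was raised by construction. Single islands ranged from 22.0 to 33.8 reads per kb in fiber replicate 1 and from 23.9 to 34.8 in fiber replicate 2, and the first epithelium value rests on 1 island. The clusters therefore differed from other genes in how often islands were called at starts, and not visibly in how dense the called islands were. Density exists only for called islands, all of which had to exceed the background, so that this likeness was in part built in. Stretches without an island have no density and were not compared.

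**Figure D4:**
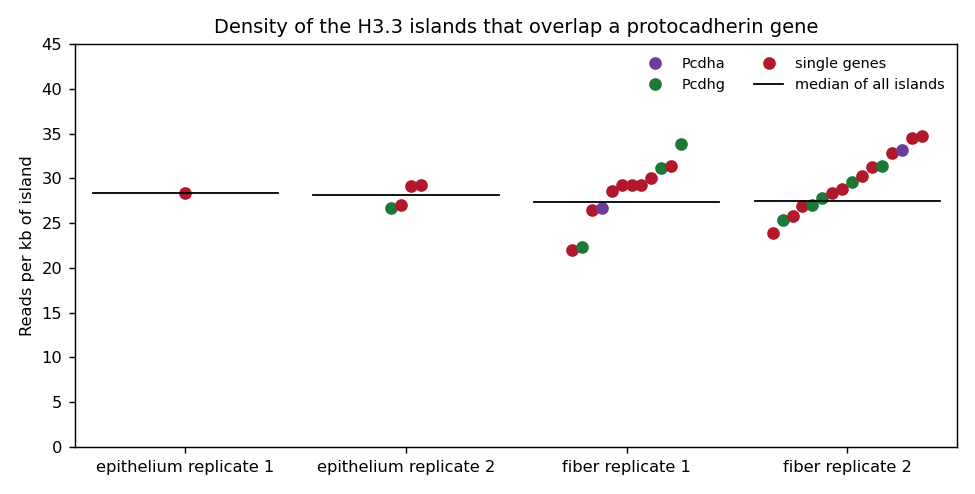
Reads per kb of each island that overlaps a protocadherin gene, counted once, with 1 column per library and colour by family. The horizontal line is the median of all islands of that library, between 27.4 and 28.3 reads per kb, and the points lie on both sides of it in the 3 libraries that have more than 1 island.

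The start regions of clustered and single genes differ in sequence. In windows from 250 bases before to 50 after the start, the median GC content was 38.7% for Pcdha, 39.5% for Pcdhb and 42% for Pcdhg, against 62.5% for the single genes and 55.3% for 20802 genes of the annotation. The median ratio of observed to expected CpG was 0.638, 0.427, 0.540 and 0.634 for the 4 families and 0.540 for all genes. The expected count follows from the numbers of C and G in each window. By number, the windows held a median of 7.5 CpG in Pcdha, 5 in Pcdhb, 7 in Pcdhg and 18.5 in the single genes, and 12 in all genes. Of genes with a ratio from 0.6 to 0.8, 57.3% and 66.2% had an island at the start in fibers, whereas the protocadherin genes of that class had 4 of 17 in both, and its 6 Pcdha genes had none. All 3 single genes of that class had one in both. Below 0.4, the shares were 16.8% and 18.8% of all genes, against 2 of 18 protocadherin genes in both. From 0.4 to 0.6 they were 40.8% and 48.3%, against 2 of 21 in both. From 0.8 to 1, the shares were 66.1% and 76.4% of all genes, against 0 and 1 of 11 protocadherin genes. This class mixes starts low in GC, such as Pcdha8 at 37.7%, with GC-rich ones, such as Pcdh15 at 73.7%. In turn, the Pcdhga12 window holds 0 CpG, while the islands counted at its start in both fiber libraries began 221 and 421 bp after it. They lay outside this window and overlapped the first exon, which holds 154 CpG. First exons with similar numbers went both ways. Those of Pcdhb22 with 150 CpG and Pcdhac2 with 138 had no island in any library. That of Pcdhgc3 with 156 had one in both fiber libraries. These classes were chosen after the values were seen and carry no test.

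Next, 3 short motifs were searched on both strands of the same windows, which were complete for all 67 protocadherin genes. CGCT, the core of a box known from clustered protocadherin promoters, was present in 14 of 14 Pcdha, 21 of 22 Pcdhb and 20 of 21 Pcdhg windows and in 8 of 10 single genes, and in 68.0% of all windows. AGNNGGCGC, a part of the CTCF consensus, was found in 2 Pcdha, 2 Pcdhb, 1 Pcdhg and 3 single genes, 11.9% of members and 8.91% of all genes. The 3 single genes were Pcdh8, Pcdh9 and Pcdh15, of which the first pair had a start island in fibers. TATAAA was found in 16.4% of members, Pcdh8 among them, and in 12.7% of all genes. A match to these letters is a description of the sequence and not a binding site, and AGNNGGCGC and CGCT can overlap in the letters CGC.

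Because clustered genes are alike in sequence, reads from them can be ambiguous. Of the stretches of 75 nt in the exons, 4.21% in the median occur more than once in the genome for Pcdha, with a maximum of 8.73%. The median was 0.905% for Pcdhb, with a maximum of 4.05%, and 0% for Pcdhg and the single genes, with maxima of 7.30% and 0%. In the windows of 1 kb around the start no clustered gene exceeded 11.1%. Most of each start region was thus unique at the length of the reads. How reads with more than 1 position were counted is not stated.

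Genes of the pathway around the protocadherins were examined as lists. The median gene of all 20807 was covered to 0%, 0%, 3.02% and 6.08% in the 4 libraries. The shares of all genes to read the lists against are 27.2%, 32%, 53.5% and 59.5% for bodies with an island, 15.7%, 19.4%, 41% and 47.4% for starts, and 40.4% for genes covered more in each fiber than in each epithelium library. Of 9 genes for CTCF, cohesin and its loaders, 2 and 2 had an island on the body in epithelium and 9 and 8 in fibers, and 6 and 5 had one at the start in fibers. Ctcf, which encodes the insulator protein that binds protocadherin promoters, was covered to 0% and 0% in epithelium and 36.1% and 37.4% in fibers. The cohesin regulator Pds5a was at 0% and 0% against 41.7% and 28.4%. The cohesin subunit gene Smc3 was at 0% and 0.447% against 23.8% and 19.01%, and the loader gene Mau2 at 13.5% and 0% against 36.9% and 62.4%. The list's medians were 0%, 0%, 2.25% and 8.68%, and for 8 of these 9 genes both fiber libraries lay above both epithelium libraries, as for 40.4% of all genes.

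Of 8 genes for silencing factors, 6 and 4 had an island in epithelium and 8 and 8 in fibers, with medians of 11.5% and 11.0% against 32.7% and 20.3% covered. Dnmt3a, a de novo DNA methyltransferase gene, was covered to 13.5% and 23.1% in epithelium and 62.5% and 63.9% in fibers. The H3K9 methyltransferase genes Ehmt2 and Ehmt1 were covered to 57.8% and 63.2% against 91.0% and 86.3%, and to 10.3% and 0% against 23.1% and 20.2%. Trim28, a corepressor gene, was covered to 12.6% and 31.4% in epithelium and 45.2% and 42.1% in fibers. Both fiber values lay above both epithelium values for 7 of the 8, again beside 40.4% of all genes.

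Genes for effectors downstream of protocadherins, the WAVE complex and kinases, had an island in 1 and 1 of 10 cases in epithelium and in 9 and 9 in fibers, with medians of 0% and 0% against 21.2% and 13.6%. Brk1, a WAVE complex subunit gene, was covered to 0% and 0% in epithelium and 63.6% and 60.8% in fibers. Abi2 and Cyfip1, which encode other subunits, were at 0% in both epithelium libraries and at 44.7% and 46.4%, and 33.5% and 25.8%, in fibers. The kinase gene Fyn was covered to 1.93% and 7.43% against 42.9% and 47.6%. Of 5 genes for the proteases that cleave protocadherins, 2 and 2 had an island in epithelium and 5 and 5 in fibers. Aph1a was covered to 28.5% and 0% against 25.2% and 74.8%, so that the compartments overlapped. Psen2 was covered to 17.6% and 18.1% against 51.6% and 42.8%, and Ncstn to 0% and 0% against 34.6% and 16.6%.

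Relatives in the cadherin superfamily were examined in the same way. Of 9 genes for the large cadherins of the Fat, Dachsous and Celsr type, 4 and 5 had an island at the start in epithelium and 6 and 7 in fibers. On bodies the counts were 4 and 7 in epithelium and 7 and 7 in fibers, with medians of 0% and 6.67% against 15.6% and 35.5%. Celsr1 was covered to 16.8% and 6.67% in epithelium and 72.9% and 65.8% in fibers, and Fat1, which encodes a large cadherin of epithelia, to 0% and 8.69% against 57.4% and 65.9%. Celsr2 was covered to 36.4% and 34.0% in epithelium and 79.96% and 77.3% in fibers, and Celsr3 to 6.31% and 26.9% against 48.3% and 35.5%. Among 19 classical and related cadherin genes, 3 and 5 starts had an island in epithelium and 8 and 8 in fibers, shares near the 15.7%, 19.4%, 41% and 47.4% of all genes, and 6, 8, 9 and 11 bodies had one. Cdh2, the gene of N-cadherin, on the same chromosome as the clusters, was covered to 0% and 0.817% in epithelium and 78.2% and 80.2% in fibers. Cdh4 was covered to 10.5% and 16.1% against 59.6% and 66.9%, and Cdh24 to 19.4% and 5.57% against 43.1% and 54.9%. Cdh1, the gene of E-cadherin and a marker of lens epithelium, was covered to 17.0% and 26.9% in epithelium and to 41.6% and 48.6% in fibers. The median over the 19 genes was 0%, 0%, 0% and 0.499%.

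**Figure D5:**
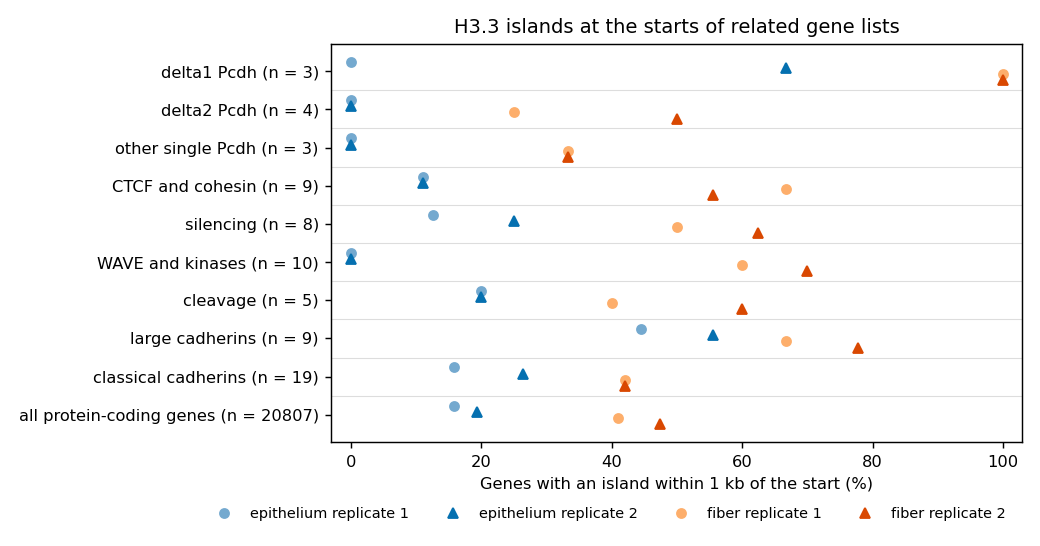
Percent of the genes of each list with an H3.3 island within 1 kb of the start, with 1 point per library and the number of genes in parentheses. The lowest row gives all protein-coding genes, at 15.7% and 19.4% in epithelium and 41% and 47.4% in fibers, and the delta1 protocadherins reach 100% in both fiber libraries.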

How the data were processed

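H3.3 ChIP-seq of newborn mouse lens was analysed in 4 libraries, 2 per compartment. Single-end reads of 75 nt had been mapped by the authors to mm10 with BWA. The deposited lists of SICER islands (window 200 bp, gap 600 bp, false discovery rate 0.01) give for each library the position of every island and its read count, left without normalization by the authors. Whether the pooled input served as control, and how duplicate reads were treated, is not given in the sources used here. Reads in islands totalled 1331369 to 5359085 per library. These are not sequencing depths, and the 2 libraries per compartment limit the precision.

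Genes came from GENCODE vM21. The symbol Pcdha11 stands for 2 genes, both kept. Pcdh11x, Pcdh19 (X chromosome) and the pseudogene Pcdhgb8 were outside the rule. Values per library were compared by exact two-sided permutation tests over libraries. CpG and motif searches used windows around the GENCODE starts, cut from the RefSeq copy of GRCm38.p6, and left out incomplete windows. Repeated 75 nt stretches were counted on its assembled chromosomes. Steps were run with numpy 2.4.6, matplotlib 3.10.9, numba 0.67.0 and scipy 1.17.1 under Python 3.11.15, checked against bedtools 2.31.1 and tested on simulated data. Named genes were all single protocadherins, C-type genes, the first and last gene of each cluster, genes with a start island in both replicates of a compartment, and up to 4 genes per list with the largest difference in covered percent. A gene of the protease list that the rule names is not reported here. Members and lists were chosen with earlier results of these data known. Alternatives left out each library, equalised the number of islands, kept denser or longer islands, required a larger overlap, widened genes or start windows, required both replicates, allocated reads to bodies, and blocked by replicate number. The bisulfite libraries and the input were not analysed here.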

Additional observations from a re-analysis of the deposited data

How the results depend on the processing

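No p can fall under 0.33 with 2 libraries per compartment, so that no test could pass a threshold under any alternative. Of the values recomputed under the alternatives, 58 stayed within 1.5 times the reported value with the same sign, 17 did not and 1 changed sign. The 58 include values that could not differ: those blocked by replicate number and those of Pcdhb, which were 0 throughout. Requiring islands of at least 600 bp, or an overlap of at least 200 bp, changed no value, so the 58 are not a measure of robustness. Limiting every library to 10389 islands, the smallest list, reduced the difference in bodies with an island from 28.5 to 17.5 when islands were ranked by density and to 9 when ranked by read count. By density and by read count, the difference in starts was 3 and 1 in place of 7, in Pcdha 0.854 and 1.24 points in place of 2.10, in Pcdhg 1.78 and 0 points in place of 6.83, in single genes 3.64 and 5.92 points in place of 10.3, and in median density 3.29 and -0.0915 reads per kb in place of 1.01. These limits keep fewer fiber islands by construction. Ranking by density also selects on the value measured, so that the 3.29 is no check of the density difference. With only islands of at least the median density of their library, the differences were 4.5 starts, 0.854 points in Pcdha, 4.16 points in Pcdhg and 1.69 reads per kb. The last of these was likewise selected on density. Reads allocated to the gene body are another measure, per kb of body, taken over the clusters and single genes with an island. The medians were 1.83 and 0.355 in epithelium, the first from Pcdh1 alone, and 1.78 and 1.54 in fibers. The difference was 0.572 reads per kb of body, and the compartments overlapped. Leaving out 1 library at a time gave a difference in bodies between 18 and 39. Islands called in both replicates gave 1 body in epithelium and 39 in fibers. Replicate numbers are shared between compartments, but deviations did not go together (r = -0.00735 over 20807 genes, which are not independent), and the numbers are not taken as pairs; with the replicate number as a block, the differences of 28.5 bodies, 2.10 points in Pcdha, 0 in Pcdhb, 6.83 points in Pcdhg, 10.3 points in single genes, 7 starts and 1.01 reads per kb were the same, with p = 0.5 (exact sign-flip permutation test, two-sided), the smallest that 2 pairs allow, and p = 1 for Pcdhb.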
